A study of Mus musculus with 24 samples.

Results

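The genes described here encode the aminoacyl-tRNA synthetases, the enzymes that attach each amino acid to its transfer RNA (tRNA). They were chosen by name, as the protein-coding rows of the count tables whose symbol is a single-letter amino acid code followed by "ars", with the paired or bifunctional forms Eprs, Farsa, Farsb and Tarsl2. The rule found 38 of the 57010 gene rows, and every member was present under the same gene identifier in both count tables. Of these, 21 encode cytosolic enzymes and 17 mitochondrial ones, whose names end in 2. Tarsl2, an older name of Tars3, encodes a threonyl-tRNA synthetase of the cytosolic type and was counted as cytosolic. Gars and Kars each encode the glycine or lysine enzyme of both compartments from a single gene, and were counted as cytosolic.

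A synthetase recognises its amino acid and its tRNA, activates the amino acid with ATP and joins the pair, and the charged tRNA is then carried to the ribosome by an elongation factor. Cytosolic proteins and the few proteins made inside mitochondria are translated with separate sets of tRNAs, so most amino acids have a pair of nuclear genes, with the mitochondrial enzyme imported after translation. The enzymes fall into classes I and II by the fold of their catalytic domain. In mammals, several cytosolic enzymes are bound together with the scaffold proteins Aimp1, Aimp2 and Eef1e1 in the multisynthetase complex. Many of the cytosolic genes are known targets of ATF4, the transcription factor of the amino acid response, which acts through a short DNA element in their promoters.

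The study measured RNA in GT1-7 cells, an immortalised mouse hypothalamic line that makes gonadotropin-releasing hormone, in relation to Mkrn3, a makorin protein with zinc fingers and a RING domain. The fractionation experiment compared unmodified cells (wt) with a line that stably expresses a GFP-Mkrn3 fusion (Mkrn3ox), each as total RNA and as cytoplasmic RNA. The immunoprecipitation experiment compared cells given 6 µg of a plasmid for GFP alone or for GFP-Mkrn3 and collected 24 h later, each as RNA pulled down through the GFP tag (IP) and as 5% of the lysate (input). Each of the 8 groups had 3 libraries, made with CEL-seq2, which reads the 3′ ends of mRNAs. All cells come from a single line, the labels do not say whether Mkrn3ox is a single clone, and they do not say whether libraries came from separate cultures, so p-values measure the spread between these libraries, which may be technical. The libraries are of bulk cultures, in which fewer cells and less RNA per cell cannot be told apart.

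Depth set what could be tested. The pull-down libraries held 6254703 to 14575652 counts, of which the 38 genes took 0.392% to 0.57%, and each gene was detected in each of these 12 libraries with 5 to 11118 counts. The fractionation libraries were shallower, with 374386 to 759271 counts and 19 to 27 of the genes detected in a library. Low-count filtering kept all 38 genes in the pull-down experiment and 14 in the fractionation experiment, 36.8% of the members against 33.8% of all genes tested in the pull-down. Mkrn3 itself had 60, 52 and 36 counts in the GFP inputs and 28366, 28280 and 32451 in the GFP-Mkrn3 inputs, far higher under the fusion plasmid's label. In the fractionation libraries it had 0 to 5 counts, so this gene left the Mkrn3ox label unchecked. The sources used here do not say whether the stable fusion transcript keeps the gene's own 3′ end, which these libraries read. Gnrh1, the defining transcript of the line, was present over the 24 libraries at 28.5 to 340.3 CPM, the count divided by the library's scaled total. Of the neuronal markers, Map2 was at 14.4 to 122 CPM, Snap25 had 0 or 1 count per library, Stmn2 0 to 2 and Tubb3 0 to 29, and Syp reached at most 9.98 CPM. Uchl1, another neuronal marker, was at 2.24 to 8.71 CPM in the pull-down libraries, at 0 to 8.2 CPM in the wt and at 49.9 to 210 CPM in the Mkrn3ox fractionation libraries, and was called higher in Mkrn3ox in total RNA (4.88, adjusted p = 4.02e-05). Markers of astrocytes (Gfap, Aqp4 and Slc1a3) reached at most 1.59 CPM, and Csf1r, a marker of macrophages, was at 211 to 407 CPM in the fractionation libraries while Ptprc had 0 or 1 count and Cd68 none there. Col1a1, a fibroblast marker, was at 20.1 to 57.4 CPM in the pull-down and 0 to 91.5 CPM in the fractionation libraries, and was called higher in Mkrn3ox total RNA (3.05, adjusted p = 0.0262). The part of any other cell type in the results was not tested.

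The pull-down experiment asked which RNAs are bound by Mkrn3. With GFP alone, 13 of the 21 cytosolic mRNAs, beside 25.1% of all genes, were more abundant in the IP than in the input, led by those for the leucine, alanine, glutamate-proline and isoleucine enzymes. With GFP-Mkrn3 the change over input was lower than with GFP for 11 of the 21, beside 11.1% of all genes. Of the 17 mitochondrial mRNAs, 1 passed that test, for Yars2, and it was higher, beside 13.2% of all genes higher. The mitochondrial mRNAs were less abundant, with a mean sum of 451 CPM in the GFP inputs against 3738 CPM for the cytosolic ones. Changes of equal size are thus harder to call among them, which limits any comparison of the classes by their counts of calls. Values below are CPM on the scale of trimmed mean of M values (TMM), given for replicates 1, 2 and 3 in order, and changes are log2 fold changes ± SE of edgeR's quasi-likelihood test. A call is an adjusted p under 0.05 after Benjamini-Hochberg correction over the 13052 genes tested.

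**Figure D1:**
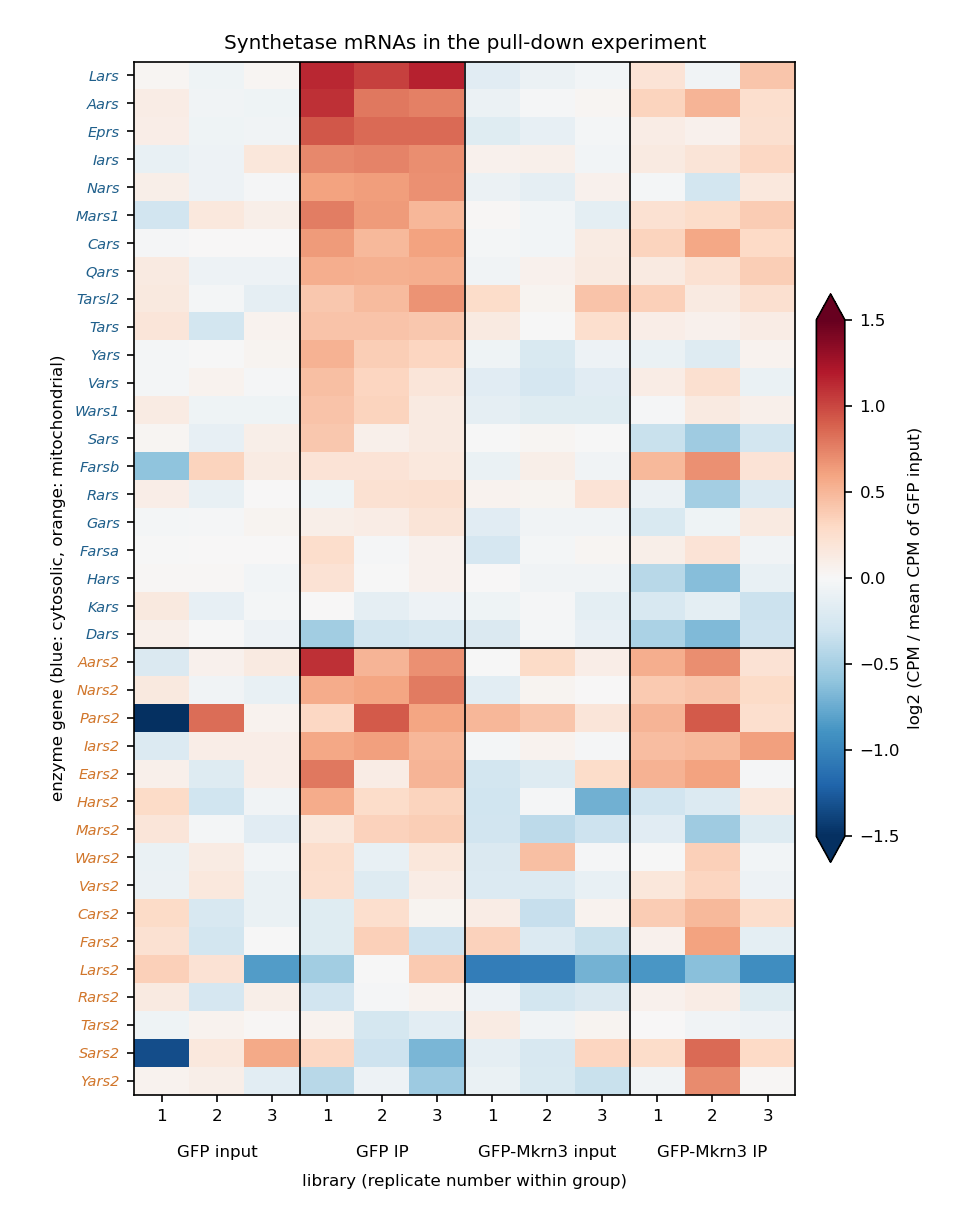
Level of 37 of the synthetase mRNAs (rows, cytosolic in blue and mitochondrial in orange) in the 12 pull-down libraries (columns), as log2 of CPM over the mean of the GFP inputs, with colours ending at -1.5 and 1.5. The cytosolic block is darkest in the 3 GFP IPs, while the most variable rows, Pars2 and Sars2, are genes of low count.

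The inputs, which hold the RNA of the transfected cells before any pull-down, showed no called difference between GFP-Mkrn3 and GFP for any of the 38 genes. Over all genes 0.0153% were called in this comparison. By edgeR 0 of 38 members were called, with 3 at an unadjusted p under 0.05, and the DESeq2 test called 0 as well. The median log2 difference was -0.05 over the cytosolic and -0.03 over the mitochondrial genes. Lars2, the mitochondrial leucine enzyme, had the largest difference, at -0.91 ± 0.24 (adjusted p = 0.71). It read 106, 95.5 and 46 CPM in the GFP inputs and 40, 40.5 and 50.5 CPM in the GFP-Mkrn3 inputs, so the third GFP input lay inside the range of the other group. Lars2 was called lower without GFP input 3, at -1.20 (adjusted p = 0.0239), and when no low-count filter was used, at -0.90.

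In the GFP control, 17 of 38 genes were higher in the IP than in the input and 1 was lower, beside 25.1% of all genes higher and 25.2% lower. The 13 cytosolic genes called higher were 61.9% of that class, and the 4 mitochondrial ones, Aars2, Iars2 and Nars2 among them, were 23.5%, close to the background. Median log2 changes were 0.41 and 0.11. Summed over the class, cytosolic synthetase mRNA was at 3843, 3623 and 3747 CPM in the GFP inputs and 5646, 5139.9 and 5158 CPM in the GFP IPs, ranges that do not overlap. The mitochondrial sum without Lars2 was 363, 374 and 368 CPM in the inputs and 462, 423 and 429 CPM in the IPs, again apart but by a smaller step. With Lars2 the sum was 469, 469 and 414 CPM in the inputs and 519, 505 and 538 CPM in the IPs. Without GFP IP 1 the calls of Dars (-0.26) and Wars1 (0.23) were lost.

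With GFP-Mkrn3, 9 genes were higher in the IP than in their input and 4 were lower, beside 13.9% and 12.8% of all genes. The cytosolic genes split, with 6 higher (Aars, Cars, Mars1, Lars, Vars and Eprs) and 4 lower (Sars, Rars, Dars and Hars), and their median was 0.17. All 3 called mitochondrial genes, Iars2 and Nars2 among them, were higher, and that class had a median of 0.33. The summed cytosolic level was 3538, 3581 and 3690.02 CPM in these inputs and 3773, 3776 and 3939 CPM in these IPs. The calls here were close to the threshold: without GFP-Mkrn3 input 2 only 5 members were called, without GFP-Mkrn3 inputs 1 or 3 or IPs 1 or 2 there were 7, and without GFP-Mkrn3 IP 3 there were 16, while 4 calls (Aars, Cars, Iars2 and Sars) held in each of the 6 leave-outs and in the other settings. The lost calls had log2 changes of 0.18 to 0.51 where higher and -0.36 to -0.23 where lower.

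The direct comparison of the IPs had 1 member higher with GFP-Mkrn3, Yars2, and 16 lower, beside 20.4% and 17.2% of all genes. The lower ones were 13 cytosolic genes, 61.9% of the class, and 3 mitochondrial ones, Hars2, Lars2 and Mars2. The cytosolic ones ran from Lars at -0.91 through Eprs, Nars, Sars, Aars, Iars, Yars, Hars, Rars, Mars1, Tars and Qars to Wars1 at -0.24. Among these, the Wars1 call was lost without GFP IPs 1 or 2 or GFP-Mkrn3 IP 1 (-0.23 to -0.17), the Tars call without the same libraries (-0.34 to -0.33) and the Qars call without GFP-Mkrn3 IP 1 (-0.24). The difference between the plasmids in the gain over input, called enrichment beyond GFP below, had 11 members lower, all cytosolic, and Yars2 higher, beside 11.1% of all genes lower and 13.2% higher. Its median was -0.36 over the cytosolic genes, 0.00 over the mitochondrial genes and 0.04 over all genes. The comparison between the IPs and the enrichment beyond GFP use the same GFP IPs as the GFP comparison above and the same GFP-Mkrn3 IPs as that with GFP-Mkrn3, so the comparisons are not independent, and the values are given side by side for each gene. Scaling by library size alone moved the median of all genes in the enrichment beyond GFP from 0.04 to 0.23 and the share of higher genes among all calls from 54.2% to 82.5%. The same scaling moved the median of all genes to -0.11 for IP against input with GFP (49.9% of calls higher, 39.3% with it), to 0.11 with GFP-Mkrn3 (52% and 67.3%) and to 0.21 between the IPs (54.2% and 78.1%). In the enrichment beyond GFP, 5 cytosolic members were still called lower under it, Lars, Eprs, Nars, Sars and Iars, and the class medians were -0.17 and 0.20.

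**Figure D2:**
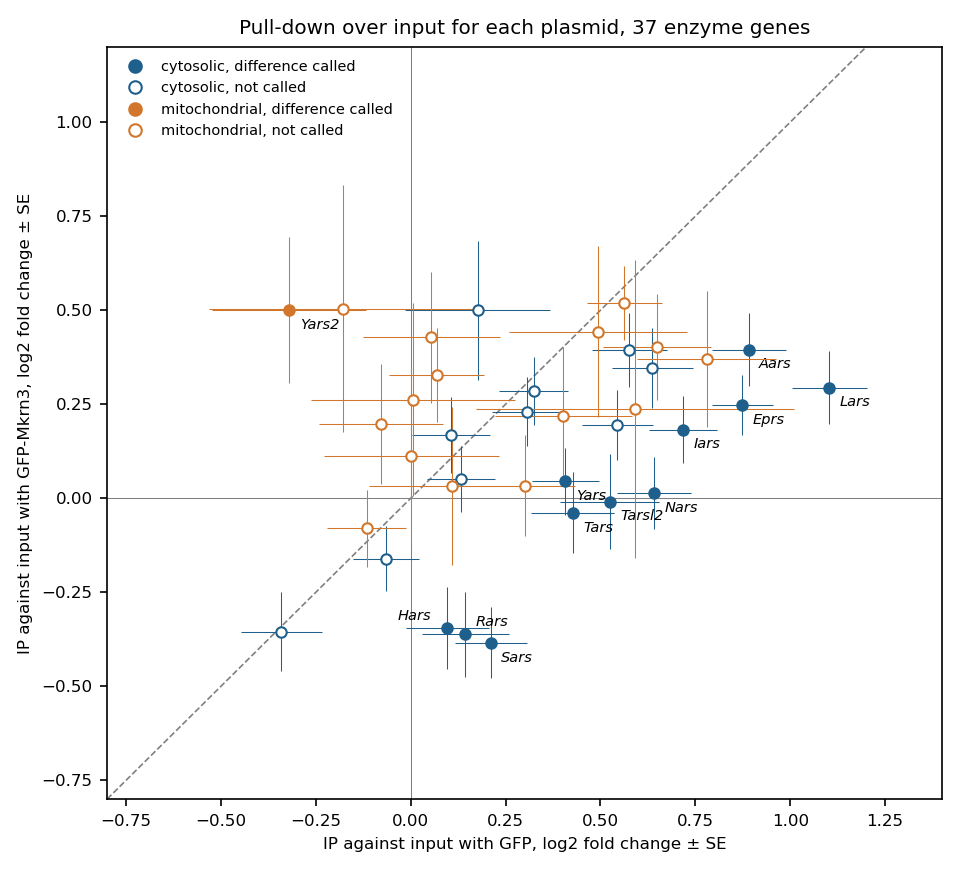
Gain of 37 of the mRNAs in the IP over its input with GFP (x axis) and with GFP-Mkrn3 (y axis), as log2 fold changes with SE bars from 3 libraries per group. Filled points passed the test of the difference between the plasmids, and the 11 called cytosolic genes lie below the dashed line of equal gain while Yars2 lies above it.

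Among the enzymes of the multisynthetase complex, Lars had the largest change. Lars encodes leucyl-tRNA synthetase, which is also known as a leucine sensor upstream of mTORC1. It read 184, 173 and 184 CPM in the GFP inputs and 396, 366 and 400.3 CPM in the GFP IPs. With GFP-Mkrn3 it read 161, 169.7 and 175 CPM in the inputs and 207, 173 and 239.8 CPM in the IPs. All 3 GFP IPs thus lay above every other library, and the GFP-Mkrn3 IPs overlapped their inputs. The change over input was 1.10 ± 0.10 with GFP and 0.29 ± 0.10 with GFP-Mkrn3, the IPs differed by -0.91 ± 0.10 (adjusted p = 1.96e-06), and the enrichment beyond GFP was -0.81 ± 0.14 (adjusted p = 5.21e-04).

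Eprs encodes the bifunctional glutamyl-prolyl-tRNA synthetase, a single chain with an activity of each class. Its gene lies on chromosome 1 of GRCm38, 185361417 to 185428360, plus strand. It read 346, 308 and 311 CPM in the GFP inputs, 612, 578 and 578 in the GFP IPs, 285, 296 and 315 in the GFP-Mkrn3 inputs and 346, 336 and 380.05 in the GFP-Mkrn3 IPs. The GFP IPs stood apart from all other libraries, and the GFP-Mkrn3 IPs stood above their own inputs by a smaller step. Its change over input was 0.87 ± 0.08 with GFP and 0.25 ± 0.08 with GFP-Mkrn3, and the enrichment beyond GFP was -0.63 ± 0.11 (adjusted p = 7.63e-04).

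Iars, the isoleucine enzyme, was also highest in the GFP IPs. It read 121, 124 and 147 CPM in the GFP inputs, 214, 219 and 211 in the GFP IPs, 137, 137 and 126 in the GFP-Mkrn3 inputs and 143, 149 and 162 in the GFP-Mkrn3 IPs, and the GFP IPs stood above all other libraries. Its enrichment beyond GFP was -0.54 ± 0.13 (adjusted p = 0.00482). 

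Mars1 encodes the methionine enzyme, whose product also serves initiation of translation. It read 96.6, 132 and 125 CPM in the GFP inputs, 200.4, 183 and 167 in the GFP IPs, 119, 115 and 107 in the GFP-Mkrn3 inputs and 138, 143 and 153 in the GFP-Mkrn3 IPs, and each IP group lay above its inputs. It rose over input with both plasmids, by 0.64 ± 0.11 and 0.35 ± 0.11. Its IPs differed by -0.34 ± 0.11 (adjusted p = 0.0145), a call that was lost without GFP IP 1 or GFP-Mkrn3 IP 1 (-0.28 and -0.31), and the enrichment beyond GFP, at -0.29 ± 0.15, did not pass the test. Qars, the glutamine enzyme, read 92.6, 80.3 and 80.2 CPM in the GFP inputs, 123, 122 and 123 in the GFP IPs, 81.5, 88.5 and 92.3 in the GFP-Mkrn3 inputs and 92.3, 99 and 109 in the GFP-Mkrn3 IPs. The GFP IPs were the highest of the 12 libraries. Qars changed by 0.54 ± 0.09 over input in the GFP control, with an enrichment beyond GFP of -0.35 ± 0.13 (adjusted p = 0.0599). This was called lower by the DESeq2 test (-0.37, adjusted p = 0.0318), with DESeq2 size factors, at a minimum mean of 20 counts, and without GFP input 1 (-0.42) or GFP-Mkrn3 IP 3 (-0.42).

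The other 3 enzymes of the complex did not gain over input in the GFP control. Rars, the arginine enzyme, read 93.4, 115 and 116 CPM in the GFP IPs and 92, 68.7 and 85.2 CPM in the GFP-Mkrn3 IPs, against 105, 91 and 98.1 and 101, 100.5 and 113 CPM in the inputs. It was lower than input with GFP-Mkrn3, at -0.36 ± 0.11, and its enrichment beyond GFP was -0.51 ± 0.16 (adjusted p = 0.0289). Dars, the aspartate enzyme, read 111, 104 and 99.5 CPM in the GFP inputs, 72.7, 86.5 and 89.1 in the GFP IPs, 90.2, 103 and 96.2 in the GFP-Mkrn3 inputs and 75.3, 66.5 and 84.8 in the GFP-Mkrn3 IPs. It was lower in the IP than in the input with each plasmid, at -0.34 ± 0.11 and -0.35 ± 0.11, and the difference between these was -0.01 ± 0.15. Kars, the lysine enzyme of both compartments, read 194, 162 and 172 CPM in the GFP inputs, 177, 160.2 and 167 in the GFP IPs, 169, 173 and 159 in the GFP-Mkrn3 inputs and 148, 159 and 141 in the GFP-Mkrn3 IPs. The GFP-Mkrn3 IPs lay below the GFP IPs and below their own inputs with no call, and its enrichment beyond GFP, -0.10 ± 0.12, did not pass the test. Of the 8 complex enzymes 4 were called lower beyond GFP, beside 11.1% of all genes, with a median of -0.43. Outside the complex it was 7 of 13 cytosolic genes, with a median of -0.36.

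Of the 3 scaffold mRNAs of the same complex, 2 were higher beyond GFP, beside 13.2% of all genes. Eef1e1, also known as AIMP3, was at 23.4, 19.5 and 20.3 CPM in the GFP inputs and 3.85, 4.66 and 5.26 in the GFP IPs, and at 21, 23.2 and 21.4 in the GFP-Mkrn3 inputs and 12.3, 15 and 14.9 in the GFP-Mkrn3 IPs. It was therefore lowest in the GFP IPs, with an enrichment beyond GFP of 1.57 ± 0.24 (adjusted p = 1.99e-04). All 3 scaffold mRNAs were lower in the GFP IP than in its input, beside 25.2% of all genes, with a median of -0.52. Beyond GFP, Aimp2 was also higher, by 0.74 ± 0.23 (adjusted p = 0.025), and Aimp1 was at -0.12 ± 0.17 with no call.

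Cytosolic enzymes outside the complex held several of the larger changes. Aars, the alanine enzyme, read 537, 481 and 477 CPM in the GFP inputs and 1065, 863 and 844 CPM in the GFP IPs. With GFP-Mkrn3 it read 468, 491 and 509 CPM in the inputs and 626, 712 and 591 CPM in the IPs. Each IP group lay above its inputs and the GFP IPs lay above the GFP-Mkrn3 IPs. The gain was 0.89 ± 0.10 with GFP and 0.40 ± 0.10 with GFP-Mkrn3, and the enrichment beyond GFP was -0.50 ± 0.14 (adjusted p = 0.0132), which under scaling by library size alone was -0.30 and not called.

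Nars, the asparagine enzyme, rose over input in the GFP control by 0.64 ± 0.10 and was at 0.01 ± 0.10 with GFP-Mkrn3. It read 308, 275 and 285 CPM in the GFP inputs, 439, 448 and 467 in the GFP IPs, 272, 264 and 302 in the GFP-Mkrn3 inputs and 284, 239.9 and 322 in the GFP-Mkrn3 IPs, the last of which overlapped their inputs. The enrichment beyond GFP was -0.63 ± 0.14 (adjusted p = 0.00277). Sars, the serine enzyme, read 541, 487 and 562 CPM in the GFP inputs, 700.2, 558 and 582 in the GFP IPs, 528, 539 and 529.9 in the GFP-Mkrn3 inputs and 422, 365 and 437 in the GFP-Mkrn3 IPs. It lay below its input with GFP-Mkrn3, at -0.38 ± 0.09, while the GFP IPs overlapped their inputs, and its enrichment beyond GFP was -0.60 ± 0.13 (adjusted p = 0.00362).

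Differences beyond GFP were also called for Tarsl2 (-0.53), Tars (-0.47), Hars (-0.44) and Yars (-0.36), the threonine, histidine and tyrosine enzymes. Their adjusted p-values by edgeR's test were 0.0387, 0.0331, 0.0419 and 0.0406. Yars read 202, 183 and 177 CPM in the GFP IPs and 132, 123 and 147 CPM in the GFP-Mkrn3 IPs, and Hars read 158, 134 and 142 and 101, 86.7 and 125 CPM, without overlap in either gene. Tars read 87.9, 87.8 and 86.3 and 69.9, 68.2 and 70.1 CPM in these groups, again apart, and Tarsl2 42.1, 44.4 and 50.9 and 40.9, 35.1 and 37.6 CPM, also apart. Tarsl2 was not called between the IPs. Its inputs read 35.3, 31.3 and 28.9 CPM with GFP and 38.5, 32.8 and 42.8 CPM with GFP-Mkrn3, with no call. These calls depended on single libraries. The Hars call held without GFP IP 2 or GFP-Mkrn3 IP 3 and was lost without any other library (-0.46 to -0.32), the Yars call held without GFP IP 3, GFP-Mkrn3 input 2 or GFP-Mkrn3 IP 3 (lost: -0.38 to -0.30), the Tars call was lost without GFP input 2, any GFP IP, GFP-Mkrn3 inputs 1 or 3 or GFP-Mkrn3 IP 1 (-0.48 to -0.35), the Tarsl2 call without GFP inputs 2 or 3, GFP IPs 2 or 3, GFP-Mkrn3 inputs 1 or 3 or GFP-Mkrn3 IP 2 (-0.56 to -0.44), and the Rars call given above without GFP inputs 2 or 3, GFP IPs 2 or 3, GFP-Mkrn3 input 3 or GFP-Mkrn3 IP 2 (-0.51 to -0.39). The calls of Lars, Eprs, Nars, Sars, Iars and Aars held without each of the 12 libraries in turn.

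The remaining cytosolic genes did not pass the test of enrichment beyond GFP. Gars, the glycine enzyme of both compartments, read 219, 220.2 and 230.4 CPM in the GFP inputs and 237, 242 and 255 CPM in the GFP IPs, and 198, 214 and 215 and 191, 214 and 245 CPM with GFP-Mkrn3, with an enrichment beyond GFP of -0.08 ± 0.13. Farsa read 85.4, 85.8 and 85.7 CPM in the GFP inputs, 102, 84.9 and 89.4 in the GFP IPs, 72, 83.6 and 87.1 in the GFP-Mkrn3 inputs and 91.1, 98.9 and 82.2 in the GFP-Mkrn3 IPs. Farsb read 11.6, 22.2 and 19.2 CPM in the GFP inputs, 20.3, 20.4 and 19.7 in the GFP IPs, 16.5, 18.9 and 17 in the GFP-Mkrn3 inputs and 24.8, 28.5 and 20.3 in the GFP-Mkrn3 IPs. These 2 genes encode the subunits of the cytosolic phenylalanine enzyme, and edgeR called neither in the 5 comparisons of the pull-down experiment. Farsb was at 0.50 ± 0.19 over input with GFP-Mkrn3 (adjusted p = 0.0523), with IPs above the inputs, and was called there by the DESeq2 test (adjusted p = 0.0415), with library size alone, without a filter, with the compared groups alone, with a replicate block across groups and without GFP-Mkrn3 IP 3. Values beyond GFP were 0.06 ± 0.14 for Farsa and 0.32 ± 0.27 for Farsb. Cars read 61.1, 62 and 61.9 CPM in the GFP inputs and 95.8, 86.2 and 93.8 CPM in the GFP IPs, and 60.4, 59.7 and 67 and 77.5, 92.1 and 75.9 CPM with GFP-Mkrn3, so each IP group stood above its inputs. Vars read 324, 345 and 327 CPM in the GFP inputs, 455, 417 and 376 in the GFP IPs, 297, 279.6 and 295 in the GFP-Mkrn3 inputs and 358, 393 and 310.1 in the GFP-Mkrn3 IPs. Cars, Vars and Wars1, the cysteine, valine and tryptophan enzymes, rose over input in the GFP control by 0.58, 0.32 and 0.31, and their enrichments beyond GFP were -0.18 ± 0.14, -0.04 ± 0.13 and -0.08 ± 0.13.

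**Figure D3:**
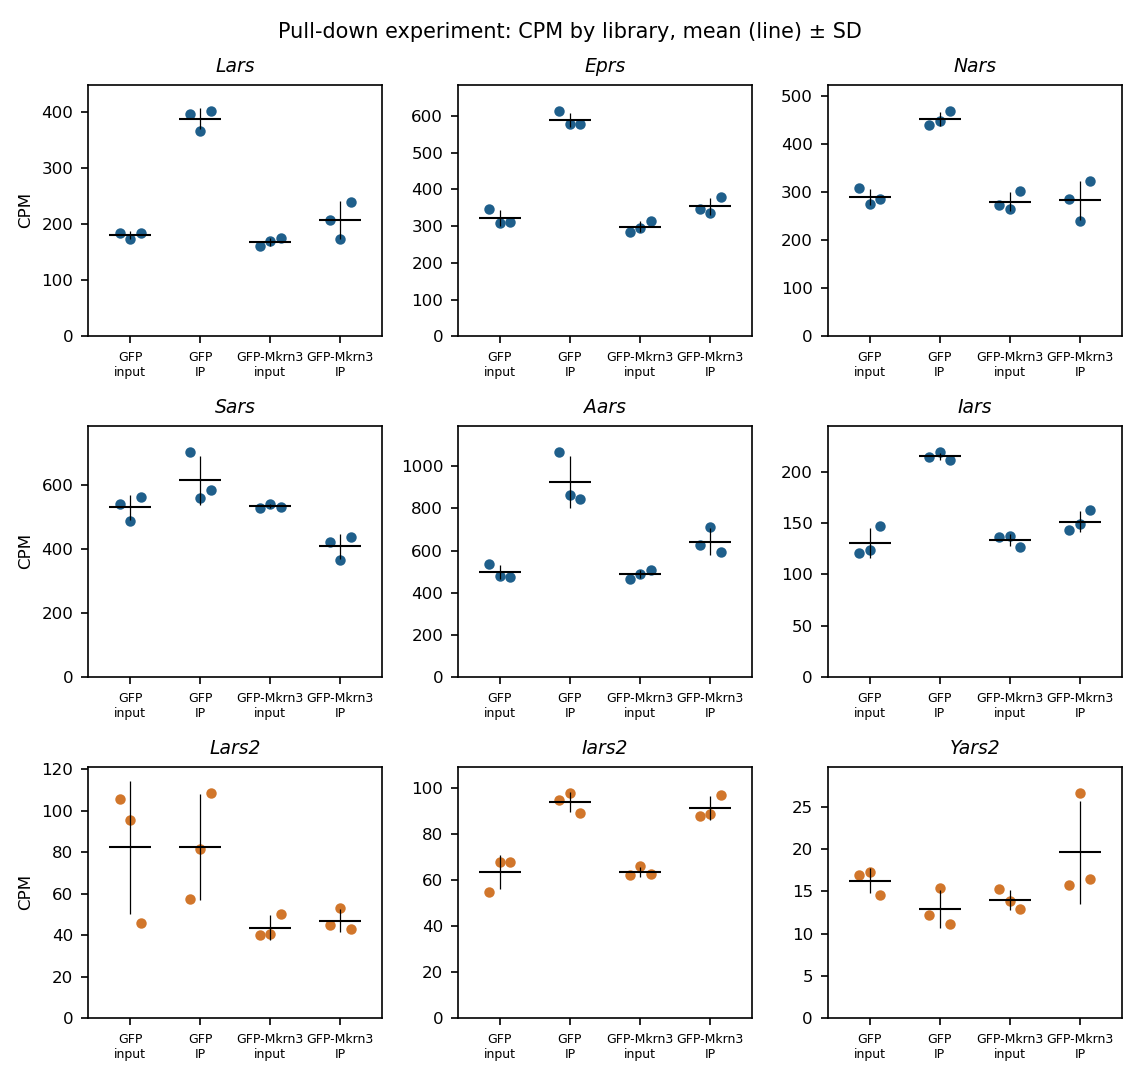
CPM of 9 synthetase mRNAs in each pull-down library (points), with the mean of 3 libraries (line) and its SD (bar), and the CPM axis of each panel starting at 0. Lars, Eprs, Nars, Aars and Iars are highest in the GFP IPs, Sars is lowest in the GFP-Mkrn3 IPs, and Iars2 is high in both IP groups.

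A list of 12 cytosolic genes known as targets of ATF4 was Aars, Cars, Eprs, Gars, Iars, Lars, Mars1, Nars, Sars, Tars, Wars1 and Yars. It held most of the members' calls in the GFP control, between the IPs and beyond GFP. In the GFP control 10 of the 12 were higher in the IP, with a median of 0.61, against 3 of the other 9 cytosolic genes, with a median of 0.14, beside 25.1% of all genes. Between the IPs, 10 of the 12 were lower with GFP-Mkrn3, against 3 of 9 and 17.2% of all genes. Beyond GFP, 8 of the 12 were lower, with a median of -0.48, against 3 of 9 with a median of -0.10 and 11.1% of all genes. The list was drawn up with earlier results of these data known, so this split is a description, and it was not tested. In the inputs the same 12 genes had a median difference of -0.05, with no call.

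The ATF4 element was searched in the promoters to show which members carry it. The motif was TGATGNAA on either strand, which reads TTNCATCA on the other strand, within 250 bases before and 50 bases after the RefSeq transcription start (GRCm38.p6). Of the 38 genes, 28 had a promoter sequence in the table, and 5 of these (17.9%) held the motif, beside 3.97% of all 32851 promoter windows. The share of members counts genes with a match in any window, and the other share counts windows, so they are not on the same scale. All 5 (Aars, Gars, Iars, Tars and Yars) are among the 8 members of the ATF4 list with a window, and none of the 14 mitochondrial genes with a window held it. The 30 bases around the match nearest the start site of each gene are given 5′ to 3′ on the strand of the gene, with the motif in capitals, since they mark the members whose promoters share this element. The matches are descriptions and not shown to be bound here.
Aars, chr8:111033840-111033869, plus strand: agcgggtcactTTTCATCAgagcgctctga
Gars, chr6:55037960-55037989, plus strand: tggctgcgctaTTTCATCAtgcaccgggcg
Iars, chr13:49682126-49682155, plus strand: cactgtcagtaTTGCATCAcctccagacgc
Tars, chr15:11399655-11399684, minus strand: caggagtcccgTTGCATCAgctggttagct
Yars, chr4:129189895-129189924, plus strand: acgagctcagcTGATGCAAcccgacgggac
The Gars match starts 30 and the Tars match 15 bases before the start site, and the Yars, Iars and Aars matches 3, 7 and 9 bases after it. The 5 genes with the element did not move alike in the pull-down. Aars, Iars, Tars and Yars were called lower beyond GFP, as above, and Gars, at -0.08, was not called, beside 11.1% of all genes lower. Eprs, Mars1 and Sars, also on the ATF4 list, had a window without the element. Of these, Eprs (-0.63) and Sars (-0.60) were called lower as well and Mars1 (-0.29) was not. A link between the element and the pull-down was not tested.

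Other genes of the amino acid response, the pathway in which ATF4 raises amino acid transport, synthesis and charging, were called in both directions beyond GFP. Of the 26 listed genes tested, 8 were higher and 2 lower, beside 13.2% and 11.1% of all genes, with a median of 0.32. Eif4ebp1, a repressor of cap-dependent translation, was at 2.13 and Chac1, a glutathione-degrading enzyme, at 1.66. The stress-response regulators Nupr1 and Cebpb were at 1.42 and 1.31. Atf4 itself was at 1.23 ± 0.16 (adjusted p = 4.93e-05), and in the GFP control it was lower in the IP than in the input, at -0.83. The amino acid transporter Slc7a5 (-0.39) and the serine synthesis enzyme Psat1 (-0.36) were lower beyond GFP. Of 13 partners of tRNA charging, 3 were higher and 1 lower, beside 13.2% and 11.1% of all genes. Prorsd1, a relative of the domain that edits mischarged tRNA, was higher at 1.54, and Eef1e1 and Aimp2 were higher as above. Xpot, the exporter of tRNA from the nucleus, was the single gene called lower, at -0.49 ± 0.11, and rose over input in the GFP control by 0.72.

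Among the mitochondrial enzymes, Iars2 and Nars2 rose over input with each plasmid. Iars2, the mitochondrial isoleucine enzyme, read 55, 67.9 and 67.8 CPM in the GFP inputs and 94.9, 97.7 and 89.4 CPM in the GFP IPs, and 62.1, 66 and 62.9 and 87.8, 89 and 97.3 CPM with GFP-Mkrn3. It stood above input without overlap with each plasmid, by 0.56 ± 0.10 and 0.52 ± 0.10, and the difference between these was -0.04 ± 0.14. Its gene, on chromosome 1 at 185286642 to 185329419, overlaps Rab3gap2 on the opposite strand, which was at 116 CPM in the GFP inputs. No source used here states whether counting used strand, so reads of the pair cannot be told apart. Nars2, the mitochondrial asparagine enzyme, rose over input by 0.65 ± 0.14 with GFP and by 0.40 ± 0.14 with GFP-Mkrn3. Nars2 read 16.9, 14.8 and 14.2 CPM in the GFP inputs, 22.6, 23.2 and 26.3 in the GFP IPs, 13.7, 15.8 and 15.4 in the GFP-Mkrn3 inputs and 20.2, 20.5 and 18.6 in the GFP-Mkrn3 IPs. Both IP groups lay above their inputs. The Nars2 call with GFP-Mkrn3 held without GFP-Mkrn3 IP 3 and was lost without any other library of that plasmid (0.34 to 0.44). Aars2, the mitochondrial alanine enzyme, read 10.9, 13.3 and 13.9 CPM in the GFP inputs and 27.2, 18 and 20.4 CPM in the GFP IPs, groups that do not overlap. It rose with GFP by 0.78 ± 0.18. With GFP-Mkrn3 it read 12.7, 15.6 and 13.6 CPM in the inputs and 18.5, 20.6 and 14.7 CPM in the IPs, overlapping groups, and the change was 0.37 ± 0.18.

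Yars2, the mitochondrial tyrosine enzyme, was the single member called higher with GFP-Mkrn3, between the IPs and beyond GFP. It read 16.9, 17.3 and 14.6 CPM in the GFP inputs, 12.2, 15.5 and 11.2 in the GFP IPs, 15.2, 13.8 and 12.9 in the GFP-Mkrn3 inputs and 15.7, 26.6 and 16.5 in the GFP-Mkrn3 IPs. The IP groups did not overlap, and the second GFP-Mkrn3 IP was well above the other two. The enrichment beyond GFP was 0.82 ± 0.28 (adjusted p = 0.0401), at 0.52 and not called without GFP-Mkrn3 IP 2, and also lost (0.73 to 0.88) without any GFP-Mkrn3 input, GFP inputs 1 or 2 or GFP IPs 1 or 3. The IP difference of 0.60 ± 0.20 (adjusted p = 0.0215) was 0.31 without GFP-Mkrn3 IP 2 and was lost without GFP IPs 1 or 3 (0.56 and 0.51). A more abundant neighbour, Dnm1l at 193 CPM in the GFP inputs, lies 2588 bases from the gene on the opposite strand, and its part in the Yars2 counts was not tested.

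Mars2, Lars2 and Hars2, the mitochondrial methionine, leucine and histidine enzymes, were lower in the GFP-Mkrn3 IP than in the GFP IP, but their enrichments beyond GFP did not pass the test. Mars2 read 38.2, 42.9 and 43.8 CPM in the GFP IPs and 30.1, 23.4 and 29.5 CPM in the GFP-Mkrn3 IPs, a difference of -0.59 ± 0.13, and its inputs lay in the same order with no call, 38.5, 33.1 and 30 against 27.7, 25.7 and 27.4 CPM. Lars2 differed between the IPs by -0.80 ± 0.23 (adjusted p = 0.011), with 57.5, 81.8 and 108 CPM in the GFP IPs and 44.9, 53.2 and 43.1 CPM in the GFP-Mkrn3 IPs. The call was lost at -0.56 without GFP IP 3. Between the inputs Lars2 differed by -0.91, which was not called, and its enrichment beyond GFP was 0.11 ± 0.33. Hars2 read 32.1, 21.3 and 25.4 CPM in the GFP inputs, 38.7, 31.9 and 33.1 in the GFP IPs, 21.3, 25.8 and 16 in the GFP-Mkrn3 inputs and 21.6, 22.7 and 29.3 in the GFP-Mkrn3 IPs. It differed between the IPs by -0.50 ± 0.18 (adjusted p = 0.033), a call lost without GFP IPs 1 or 3 or GFP-Mkrn3 IPs 1 or 2 (-0.53 to -0.41). The other 9 mitochondrial genes had no call in any of the 5 comparisons of the pull-down experiment. Their values beyond GFP ran from -0.35 (Pars2) to 0.68 (Sars2), the members with the lowest CPM in the GFP inputs, at 3.95 and 6.83.

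The uncalled partners of the cytosolic enzymes are given for the comparison of pairs. Sars2, the mitochondrial serine enzyme, read 2.73, 7.63 and 10.1 CPM in the GFP inputs, 8.48, 5.52 and 4.24 in the GFP IPs, 6.22, 5.8 and 8.51 in the GFP-Mkrn3 inputs and 8.28, 12.3 and 8.43 in the GFP-Mkrn3 IPs, so the IPs were not apart from the inputs. Rars2, the arginine enzyme, read 17.8, 13.6 and 17.3 CPM in the GFP inputs, 13.4, 16.1 and 16.8 in the GFP IPs, 15.4, 13.4 and 14 in the GFP-Mkrn3 inputs and 17, 17.5 and 14.4 in the GFP-Mkrn3 IPs. Tars2, the threonine enzyme, read 57.3, 62.2 and 60.7 CPM in the GFP inputs, 62.4, 50 and 53.8 in the GFP IPs, 65.4, 57.7 and 62 in the GFP-Mkrn3 inputs and 60.5, 57.9 and 56.7 in the GFP-Mkrn3 IPs. Its neighbours Ecm1 and Rprd2 lie within 5 kb on the same strand. Cars2, the cysteine enzyme, read 18.1, 12.6 and 13.9 CPM in the GFP inputs, 13.1, 17.7 and 15.3 in the GFP IPs, 16, 11.7 and 15.4 in the GFP-Mkrn3 inputs and 19.4, 20.8 and 17.9 in the GFP-Mkrn3 IPs. Vars2, the valine enzyme, read 58.1, 68.9 and 57.7 CPM in the GFP inputs, 73.3, 54 and 66.7 in the GFP IPs, 53.2, 53.4 and 56.9 in the GFP-Mkrn3 inputs and 69.3, 77 and 58.4 in the GFP-Mkrn3 IPs. Among these 5, the IP groups of the plasmids stood apart in Cars2, which was higher with GFP-Mkrn3 with no call, and overlapped in the others. Eprs has separate mitochondrial partners, Ears2 for glutamate and Pars2 for proline. Ears2 read 7.89, 6.59 and 8.05 CPM in the GFP inputs, 13, 8.09 and 10.7 in the GFP IPs, 6.22, 6.59 and 9.09 in the GFP-Mkrn3 inputs and 10.8, 11.4 and 7.41 in the GFP-Mkrn3 IPs. Pars2 read 0.718, 7.05 and 4.08 CPM in the GFP inputs, 4.88, 7.48 and 5.94 in the GFP IPs, 5.59, 5.27 and 4.49 in the GFP-Mkrn3 inputs and 5.64, 7.49 and 4.72 in the GFP-Mkrn3 IPs. Fars2, the phenylalanine enzyme, is a single chain in mitochondria and read 8.18, 5.78 and 6.95 CPM in the GFP inputs, 6.17, 8.95 and 5.6 in the GFP IPs, 8.89, 6.06 and 5.52 in the GFP-Mkrn3 inputs and 7.28, 10.6 and 6.29 in the GFP-Mkrn3 IPs. In these 3 the groups overlapped between the IPs. Wars2, the tryptophan enzyme, had values beyond GFP of -0.08 ± 0.30, against -0.08 ± 0.13 for Wars1.

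Set against each other by amino acid, the cytosolic enzyme had the lower enrichment beyond GFP in 16 of 17 pairs, with Eprs paired with both Ears2 and Pars2. The median difference within pairs was -0.38 on the log2 scale. The pairs of tryptophan, methionine and alanine differed by less than 0.1, and those of serine, tyrosine and leucine by the most. In the GFP control the cytosolic enzyme had the larger gain over input in 14 of 17 pairs, with a median difference of 0.26, and in the inputs it had the higher value in 10 of 17, with a median of 0.03. By structural class, 5 of 19 class I and 6 of 19 class II genes were lower beyond GFP, beside 11.1% of all genes. Their medians were -0.08 and -0.18. Genes are not replicates, and neither the split by compartment nor that by class was tested.

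**Figure D4:**
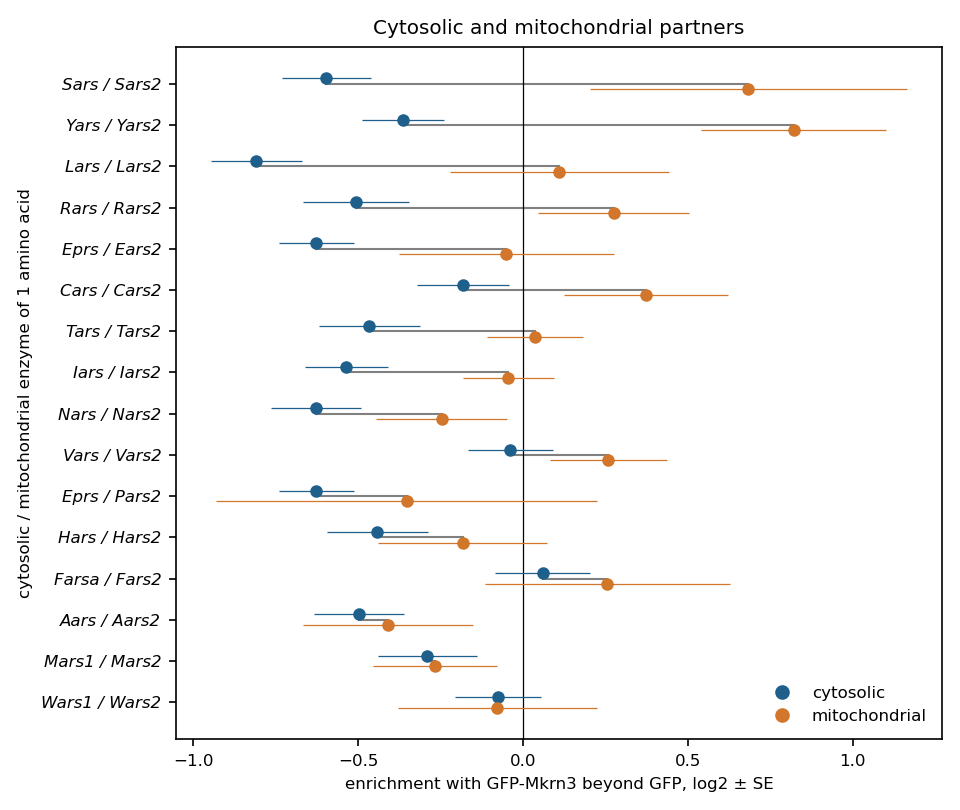
Enrichment with GFP-Mkrn3 beyond GFP (log2, SE bars, from 12 libraries) of the cytosolic (blue) and mitochondrial (orange) enzyme in 16 of the pairs, ordered by their difference. The cytosolic point lies to the left in all pairs shown but that of Wars1 and Wars2, and the called cytosolic genes shown lie at -0.36 or below.

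The fractionation experiment asked how stable GFP-Mkrn3 changes total and cytoplasmic RNA, and here no synthetase passed the test. The 14 genes tested were 11 cytosolic (Aars, Eprs, Gars, Hars, Kars, Lars, Mars1, Nars, Qars, Sars and Yars) and 3 mitochondrial (Fars2, Iars2 and Lars2), and the other 24 had 1 to 84 counts summed over the 12 libraries. By edgeR 0 of 14 were called in total RNA (7.39% of 5033 genes were), with 2 at an unadjusted p under 0.05. In cytoplasmic RNA 0 were called (10.5% of genes), with 3 at an unadjusted p under 0.05. For cytoplasmic against total RNA 0 were called in wt (3.78% of genes) and 0 in Mkrn3ox (4.53%), with 4 and 2 at an unadjusted p under 0.05. The difference between the lines in the cytoplasm-to-total ratio had 0 calls (0.219% of genes), with 2 at an unadjusted p under 0.05. The DESeq2 test called 0 in all of these but cytoplasmic against total RNA in Mkrn3ox, where it called Mars1.

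Median changes with the line were -0.17 for the 11 cytosolic and 0.27 for the 3 mitochondrial genes in total RNA, and -0.05 and -0.53 in cytoplasmic RNA. The cytosolic medians turned sign under other settings, to 0.04 in total RNA at a minimum mean of 20 counts and to 0.32 in cytoplasmic RNA with library size alone. The summed cytosolic level was 944, 842 and 1032 CPM in wt total RNA and 746, 839.7 and 996 CPM in Mkrn3ox total RNA, overlapping ranges. In the cytoplasm it was 1219, 1128 and 1042 CPM in wt and 950.4, 1089 and 1221 CPM in Mkrn3ox, which overlap as well. For the cytoplasm, scaling by library size alone moved the share of higher genes among all calls from 41.3% to 72.8%, and for total RNA from 48.1% to 60.7%.

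Single genes of the fractionation experiment came nearer to a call. Mars1 read 199, 147 and 273 CPM in Mkrn3ox total RNA and 327, 372 and 395 CPM in Mkrn3ox cytoplasm, groups that do not overlap, with a change of 0.82 ± 0.26 (adjusted p = 0.0747). It was called by the DESeq2 test at 0.81 (adjusted p = 0.0436), under scaling by library size, with a mean of at least 20 counts, with the compared groups alone, and without Mkrn3ox total library 3 (1.08). Its gene overlaps Ddit3, a stress-response factor on the opposite strand, which was at 1079 CPM in wt total RNA against 292 CPM for Mars1, and the change of Ddit3 in the same comparison was -0.22 ± 0.17. Yars read 10.3, 17 and 21.9 CPM in wt cytoplasm and 37.4, 40.7 and 50.2 CPM in Mkrn3ox cytoplasm, also apart, with a change of 1.37 ± 0.52 (adjusted p = 0.0994). Qars read 41.4, 51 and 49.2 and 57.4, 68.7 and 161 CPM in these groups, apart as well, at 1.02 ± 0.43 (adjusted p = 0.146), and both genes were called under scaling by library size alone, at 1.71 and 1.36, a scaling under which the median of all genes was 0.38.

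Lars2 had more counts than any other member of the fractionation experiment and the widest spread. It had 217, 452 and 484 counts in wt total RNA, 21, 1852 and 569 in wt cytoplasm, 269, 865 and 1183 in Mkrn3ox total RNA and 554, 1495 and 850 in Mkrn3ox cytoplasm. The first wt cytoplasm library lay far below all others, and the groups overlapped. Cytoplasmic against total RNA in wt was 1.64 ± 0.71 (adjusted p = 0.244), and 2.21 (adjusted p = 0.00407) without wt cytoplasm library 1. Without a low-count filter Lars2 was called in that comparison (1.56), in Mkrn3ox cytoplasm against total (0.68) and in total RNA between the lines (1.19). Lars2 overlaps Gm46137, which had no row under its symbol. Whether all of these counts come from the Lars2 mRNA was not tested. Fars2, the mitochondrial phenylalanine enzyme, was lower in Mkrn3ox cytoplasm at 29.9, 35.6 and 29.3 CPM than in wt cytoplasm at 72.4, 80.7 and 54.7 CPM, without overlap, at -1.13 ± 0.54 (adjusted p = 0.21), and in total RNA its change was -1.33 ± 0.54, called at -2.20 without Mkrn3ox total library 1. Its neighbour Lyrm4, 71 bases away on the opposite strand, was at 121 CPM in wt total RNA, and Gm40912, which overlaps Fars2, had no row under its symbol. Their part in the Fars2 counts was not tested. Gars had 0 to 20 counts a library here, so its fitted changes are not given.

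**Figure D5:**
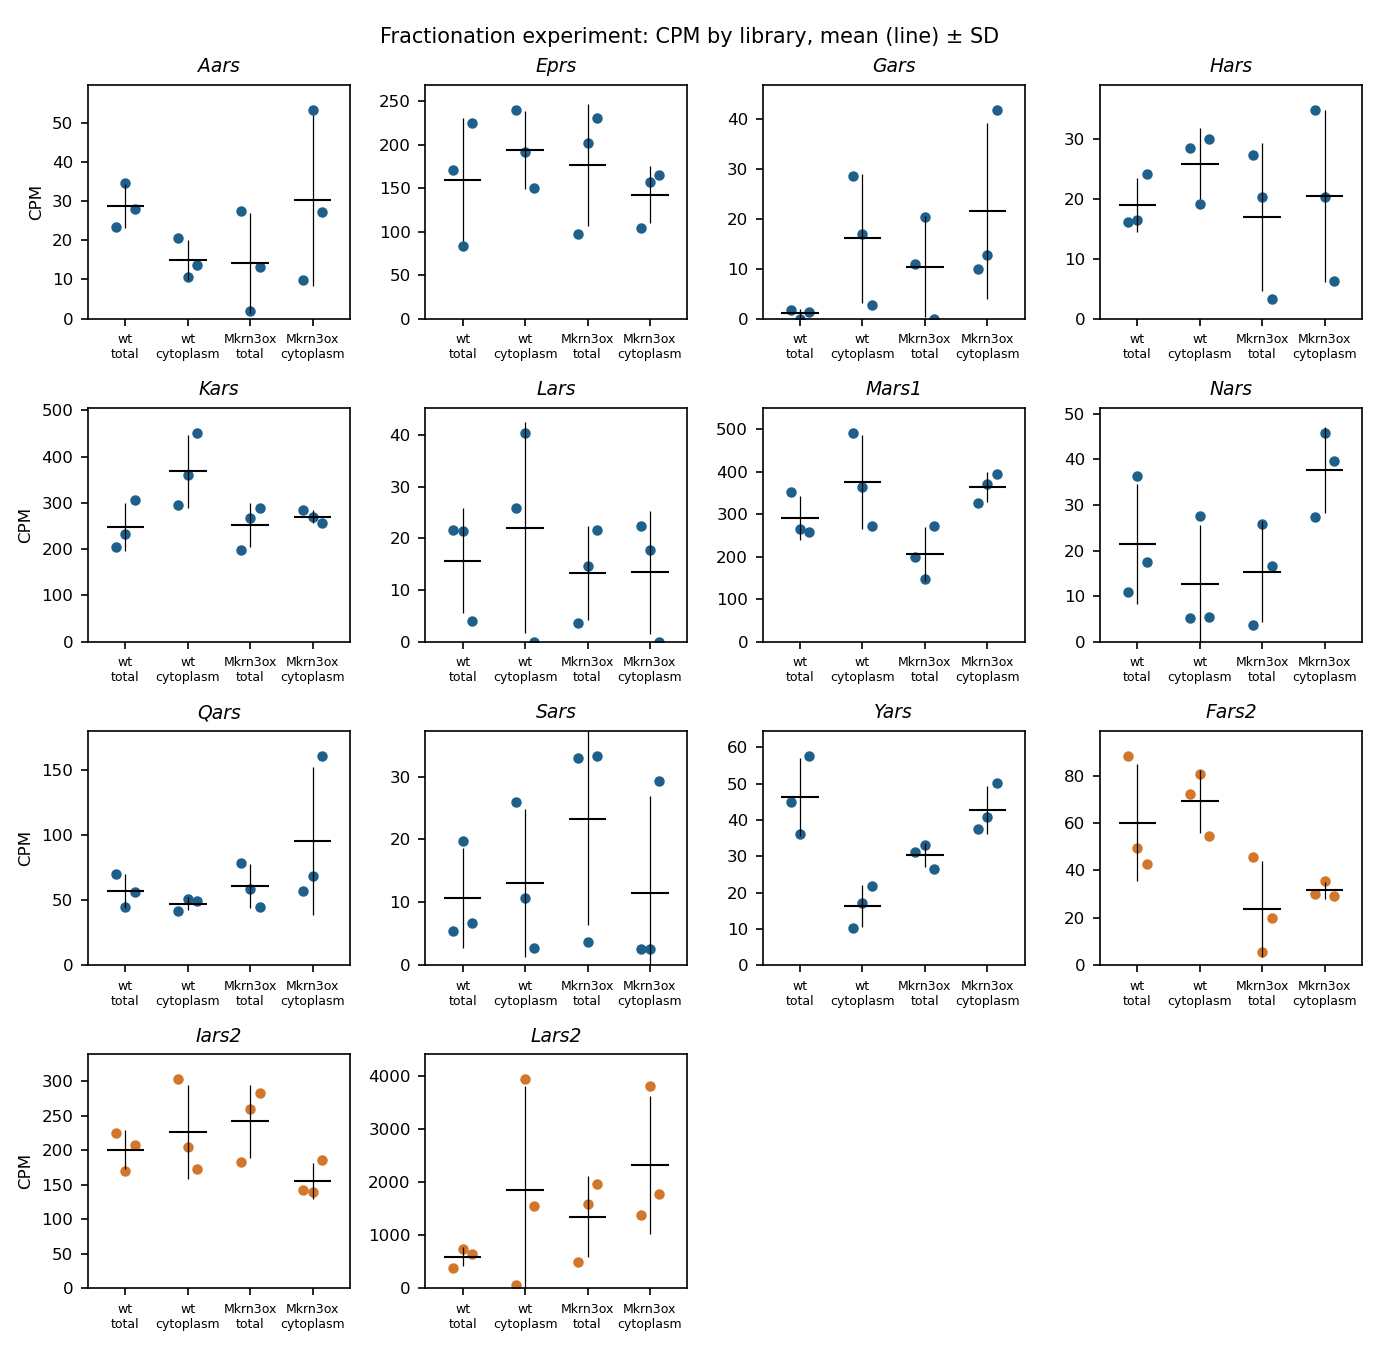
CPM of the 14 tested synthetase mRNAs in each fractionation library (points), with the mean of 3 libraries (line) and its SD (bar, cut off at 0), cytosolic in blue and mitochondrial in orange, each CPM axis starting at 0. Groups overlap in most panels, and Lars2 has the widest spread, from 54.3 to 3935 CPM.

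Of the 27 genes listed for the amino acid response, 11 were tested in this experiment. In total RNA 2 were called higher in Mkrn3ox and none lower, Shmt2 and the amino acid transporter Slc7a1 (1.14 ± 0.33, adjusted p = 0.0371), beside 7.39% of all genes called in either direction. Of all 5033 genes, 179 were higher there and 193 lower. In cytoplasmic RNA 2 were called higher and 1 lower, beside 10.5% in either direction (217 of 5033 genes higher and 309 lower). In Mkrn3ox cytoplasm against total RNA 2 were higher, Atf5 (2.10 ± 0.44) and Atf4 (1.74 ± 0.44). Beside these, 4.53% of all genes were called in either direction, 39 of 5033 higher and 189 lower. Shmt2, the mitochondrial serine hydroxymethyltransferase, was higher in Mkrn3ox in total RNA (adjusted p = 0.0457) and in cytoplasm (adjusted p = 0.0166), with 0, 8 and 6 counts in wt cytoplasm and 23, 41 and 56 in Mkrn3ox cytoplasm. In cytoplasmic RNA Atf4 was higher, at 2.04 ± 0.46 (adjusted p = 0.00584), with 20.7, 38.2 and 16.4 CPM in wt and 107, 122 and 87.8 CPM in Mkrn3ox, and Ddit3 was lower, at -0.70 ± 0.17 (adjusted p = 0.0114). Of the 12 listed ATF4 targets among the synthetases, 8 were tested in this experiment and none was called. Between the lines, 7.39% of all genes were called in total RNA and 10.5% in cytoplasmic RNA. Among the 8, Aars, Gars, Lars, Nars and Sars had at most 22 counts in any library, so few calls could be made among these genes.

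The annotation limits several members. Of 81 neighbours overlapping a member or within 5 kb, 15 had no row under their symbol. In the GFP inputs at least 13 of the 38 genes had a more abundant neighbour, among them Dars (Mcm6), Qars (Qrich1), Ears2 (Ubfd1), Rars2 (Orc3, overlapping), Fars2 (Lyrm4) and Tars2 (Rprd2). Hars2 overlaps the more abundant Hars, 26.3 against 135 CPM in the GFP inputs. The levels of the members also differed between the experiments, whose tables were normalised separately. In wt total RNA 5 of the 38 were at a higher CPM than in the GFP inputs, among them Fars2 (60.2 against 6.97), Iars2 (201 against 63.6) and Lars2 (595 against 82.4), while Aars was at 28.7 against 498. Ddit3, which overlaps Mars1, was at 92 CPM in the GFP inputs against 118 CPM for Mars1, and was the more abundant in wt total RNA, as given above. Counts of overlapping or close pairs are uncertain where reads could be assigned to either gene.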

How the data were processed

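RNA was measured by CEL-seq2 in 24 libraries of GT1-7 cells, 3 for each of 8 groups. The deposited values are raw counts of reads per gene; cutadapt, STAR, HTSeq and the mouse build mm10 are named per the submitters' processing notes (versions and strand setting of counting: not given in the sources used here). Results on 1 member and 1 promoter site are not reported here. All 38 genes and the gene lists were chosen with earlier results of these data known. Columns were assigned to groups by their labels. Rows with a gene identifier but no symbol (1606) stayed in the fit.

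Each experiment was fitted by itself on all genes in edgeR (version 4.0.16, under R 4.3.3) after a low-count filter by group and TMM scaling, with 1 coefficient per group and the quasi-likelihood F test on 8 residual degrees of freedom. This left 5033 genes in the fractionation and 13052 in the pull-down experiment. Adjusted p-values are Benjamini-Hochberg over all genes tested in a comparison, and a call is one under 0.05. The biological coefficient of variation was 0.384 and 0.115. The script was tested on simulated data with known changes. Depth per library limits the members most in the fractionation experiment; counting intervals cover counting error only.

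Members were named with values where called (up to 8 a direction by size of change with a mean of at least 20 counts), with the partner enzyme of the same amino acid, the enzymes of both compartments, and members with a more abundant neighbour within 5 kb. Of other lists up to 4 called genes were named; Atf4, Ddit3, Slc7a5, Psat1 and Shmt2 were named after their values were seen. Alternatives were DESeq2 1.42.0 (size factors and test), library size alone, no filter, a mean of at least 20 counts, the compared groups alone, replicate blocks, and leaving out each library. Promoters and gene positions come from RefSeq GRCm38.p6, matched by symbol (38 of 38 genes, 28 with a promoter). The labels do not say whether same-numbered libraries share a culture or lysate, and the main fit did not pair them. Deviations of same-numbered libraries of a line or plasmid correlated at -0.018 to 0.038 in the fractionation and at -0.146 to 0.014 in the pull-down experiment. With 3 libraries per group these values cannot settle whether the libraries are paired.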

Additional observations from a re-analysis of the deposited data

Results flagged for a closer look

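In 12 genes the change of IP over input differed between the GFP-Mkrn3 and GFP plasmids by edgeR's test of that difference, as log2 values over 3 libraries per group. The difference was -0.81 for Lars, -0.63 for Eprs, -0.63 for Nars and -0.60 for Sars. It was -0.54 for Iars, -0.53 for Tarsl2, -0.51 for Rars and -0.50 for Aars, and -0.47 for Tars, -0.44 for Hars and -0.36 for Yars. Yars2 was the single member called higher, at 0.82.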

How the results depend on the processing

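No called member changed direction under any alternative run. Called members kept their call under all alternatives in 14 of 18 cases for GFP IP against input, 4 of 13 for GFP-Mkrn3 IP against input, 9 of 17 between the IPs and 5 of 12 for the enrichment beyond GFP. The number of members called in the enrichment beyond GFP was 6 with scaling by library size alone, and 6 to 13 when 1 library was left out. In GFP-Mkrn3 IP against input it was 5 to 16 over the leave-outs, with the cytosolic minus mitochondrial median at -0.30 to -0.11 (-0.16 with all libraries). In the fractionation experiment calls rose from 0 to 2 for cytoplasmic RNA between the lines with library size alone, and to 1 for total RNA and for cytoplasm against total in wt without a filter. For cytoplasm against total in Mkrn3ox there was 1 call with library size alone, 1 without a filter, 1 with a mean of at least 20 counts, 1 by the DESeq2 test and 1 with the compared groups alone. Leaving out 1 library gave 0 to 1 calls in these comparisons except cytoplasmic RNA between the lines, where it gave 0. In the inputs there was 1 call without a filter and 0 to 1 over the leave-outs. The cytosolic minus mitochondrial median of cytoplasm against total in Mkrn3ox was 0.09 and 0.16 to 0.99 over the leave-outs, and that of the line difference in this ratio was 0.63, 0.34 to 1.41 over the leave-outs and 1.25 without Gars and Kars; each rests on 3 mitochondrial genes. Class medians of the fractionation experiment turned sign under several settings, among them the cytosolic median for total RNA between the lines (-0.17, 0.04 at a minimum mean of 20 counts and 0.03 with a block across groups) and for cytoplasmic RNA (-0.05, and 0.32 with library size alone, 0.69 without a filter and 0.51 with the compared groups alone). The cause was not tested.

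The groups share replicate numbers, and the labels do not say whether these pair the libraries. Of the libraries, 5 of 12 in the fractionation and 1 of 12 in the pull-down experiment correlated best with their own number. In each experiment, pairs with the same number were 6 within a line or plasmid and 12 across them, against 12 and 24 with different numbers. Some best matches would therefore share a number without any pairing, and these counts do not settle it. With a replicate block across groups the enrichment beyond GFP had 12 calls and GFP-Mkrn3 IP against input 13, and with a block within plasmid they had 10 each. The cytosolic minus mitochondrial median of the line difference in the cytoplasm-to-total ratio was 0.0171 and -0.25 with these blocks, the second with the sign turned. For cytoplasm against total in wt it turned from 0.09 to -0.13 with the block within line and to -0.16 without a filter. For cytoplasm against total in Mkrn3ox it turned from 0.09 to -0.08 and -0.16 with them and to -0.03 with a mean of at least 20 counts. Depth leaves 24 of 38 members untested in the fractionation experiment.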
